A study of Mus musculus with 8 samples.

Results

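Endoglin, encoded by Eng, and 9 receptors of the TGF-beta and BMP family that it works with were examined by gene name in RNA-seq of immortalized MEFs with and without SLMAP3. The 10 genes are Eng and Tgfbr3, which encode co-receptors, Acvrl1, Tgfbr1, Bmpr1a, Acvr1 and Acvr1b, which encode type I receptors, and Tgfbr2, Bmpr2 and Acvr2a, which encode type II receptors. They are 10 of 55401 genes listed and 10 of the 15461 genes that passed the filter on low counts. Eng was chosen by its measured counts, which differed between the genotypes in these same lines, so its own difference is given as a description with no test, and the others were chosen for their place in the family.

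MEFs are fibroblasts grown from mouse embryos, here E14.5 embryos of the B6C3F1 strain from which head and organs had been removed. Both groups carry SV40 large T antigen, which was transfected into the cells to immortalize them. In the 4 SLMAP3-/- lines a floxed exon of Slmap had been deleted in the whole animal by Cre under the CMV promoter, and the 4 WT lines were the controls. Each line gave 1 stranded mRNA library, different lines come from different embryos, and p-values here measure the spread between such lines.

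TGF-beta and BMP ligands bring type II and type I receptors together at the cell surface. The type II kinase phosphorylates the type I kinase, which then phosphorylates Smad proteins that enter the nucleus and regulate transcription. Endoglin and betaglycan, the product of Tgfbr3, have no kinase of their own and present ligand to the signalling receptors. Endoglin is best known from endothelium, where it acts beside the type I receptor ALK-1, the product of Acvrl1, and mutations of either gene in humans cause hereditary haemorrhagic telangiectasia. It is also found on mesenchymal stromal cells, where it is called CD105.

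Total estimated counts were between 49878808 and 63322675 per line. Slmap, the targeted gene, was at 38.3 ± 4.94 CPM (SD, n = 4) in SLMAP3-/- lines and 137 ± 8.60 CPM (SD, n = 4) in WT lines (log2 fold change -1.84, adjusted p = 0.00119 in edgeR's quasi-likelihood test), where CPM are counts scaled to a common library size with edgeR's TMM factors. The lines carried mesenchymal transcripts at high levels. The summed CPM of 11 fibroblast and mesenchymal markers was between 11036 and 13033 in SLMAP3-/- lines and between 12050 and 15293 in WT lines, led per length by Vim, Col1a1 and Col1a2, although Dcn and Lum were low with WT means of 5.24 and 6.07 CPM. Summed CPM was at most 5.50 in any line for 7 haematopoietic markers, led by Cd68, Csf1r and Hba-a1, and at most 4.71 for 6 epithelial markers, led by Krt18, Epcam and Cdh1. For 5 neural crest and neural markers, Tubb3 and Mitf among them, it was between 18.5 and 37.4 in SLMAP3-/- and between 19.8 and 33.2 in WT cells. In bulk RNA of this kind fewer cells of a type and less RNA per cell cannot be told apart.

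Eng (ENSMUSG00000026814.16) lies on the plus strand of chromosome 2 of GRCm38 from 32646595 to 32682669. In the 4 SLMAP3-/- lines, in the order of replicates 1 to 4, it stood at 3.41, 2.58, 3.94 and 10.4 CPM. In the 4 WT lines it stood at 25.3, 13.2, 41.1 and 63.4 CPM. No SLMAP3-/- line reached the level of a WT line, and the narrowest gap was between SLMAP3-/- replicate 4 and WT replicate 2, the lowest WT line, which was 1.27 times as high. The mean was 5.09 ± 3.60 CPM (SD, n = 4) in SLMAP3-/- and 35.8 ± 21.7 CPM (SD, n = 4) in WT cells, so that the WT mean was 7.03 times the SLMAP3-/- mean, and the WT median was 9.04 times the SLMAP3-/- median. On the log2 scale Eng fell by 2.81 ± 0.59 (SE). The reads behind these levels were not few, since estimated counts ran from 129 to 544 in SLMAP3-/- MEFs and from 684 to 3730 in WT MEFs. Without SLMAP3-/- replicate 4 the log2 fold change was -3.43.

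Lines of one genotype also differed widely in Eng. The SD of log2 CPM between lines was 0.870 in SLMAP3-/- and 0.969 in WT, and over both genotypes it was 0.92, against a median of 0.275 for all tested genes. Of the 1492 genes within 0.5 of Eng in mean log2 CPM, 92.8% had a smaller spread. Only Acvrl1 came near among the other receptors, with SDs of 0.640 and 0.814. Bmpr2 in WT lines was the steadiest, with an SD of 0.0256.

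**Figure D1:**
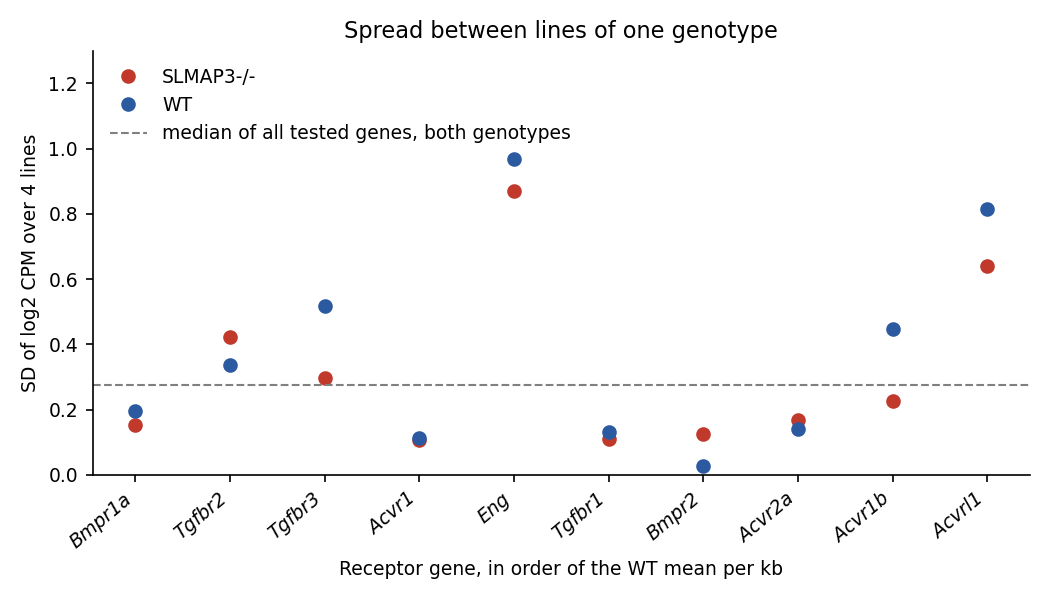
SD of log2 CPM over the 4 lines of each genotype (vertical axis, log2 units) for the 10 receptor genes, with SLMAP3-/- in red and WT in blue. The dashed line is the median of all tested genes, 0.275, and Eng lies highest in both genotypes at 0.870 and 0.969.

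The 250 bases before the annotated start of Eng are shown because Eng is the member whose level differed most between lines and between genotypes. They come from the RefSeq annotation of GRCm38.p6, on the plus strand at chr2:32646345-32646594, and read from 5′ to 3′ with matches to the short Smad-binding motif CAGAC, or GTCTG on the other strand, in capitals.
Eng: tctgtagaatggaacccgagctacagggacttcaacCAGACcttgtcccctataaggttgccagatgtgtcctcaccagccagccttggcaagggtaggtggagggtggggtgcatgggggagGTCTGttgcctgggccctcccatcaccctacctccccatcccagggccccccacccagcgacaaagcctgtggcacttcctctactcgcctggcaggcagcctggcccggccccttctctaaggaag
The window held 2 such matches, which begin at positions -214 and -127 from the start, and 42.2% of 32851 RefSeq promoters held at least 1 in a window of the same length. The GC box GGGCGG, searched on both strands, was in 32.7% of these promoters and not in that of Eng. It was present in Bmpr2, Acvr2a, Acvr1, Bmpr1a and Acvr1b and in 1 of the 2 windows of Tgfbr1, and not in Tgfbr2. The ETS motif CGGAAG, the TATA motif TATAAA, the palindrome GTCTAGAC and the BMP Smad motif GGCGCC gave no match in the window of Eng, and 13.6%, 12.4%, 0.167% and 9.59% of all promoters held them. Eng's window was 62.4% G and C against a median of 52.4%. Promoters were found in the table for 8 of the 10 genes, without Acvrl1 and Tgfbr3, and a match to so short a motif is a description of the letters and no binding site.

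Levels of different genes were compared after division by transcript length, as CPM per kb. In WT lines Bmpr1a stood highest at 87.3 ± 11.5 CPM per kb (SD, n = 4), followed by Tgfbr2 at 28.9, Tgfbr3 at 27.1, Acvr1 at 18.2, Eng at 13.3, Tgfbr1 at 12.3, Bmpr2 at 11.5, Acvr2a at 4.06, Acvr1b at 3.31 and Acvrl1 at 1.10. Neighbours in that order overlapped between lines except Bmpr1a with Tgfbr2, Bmpr2 with Acvr2a, and Acvr1b with Acvrl1. Eng thus lay in the middle of the family in WT cells at 13.3 ± 8.04 CPM per kb, while Acvrl1, its partner in endothelium, was the least abundant. In SLMAP3-/- lines the order of means was Bmpr1a, Tgfbr3, Tgfbr2, Acvr1, Tgfbr1, Bmpr2, Acvr1b, Acvr2a, Eng and Acvrl1, and Eng moved from rank 5 to rank 9 with 1.89 ± 1.34 CPM per kb (SD, n = 4). The neighbours that did not overlap in SLMAP3-/- lines were Bmpr1a with Tgfbr3, Tgfbr2 with Acvr1, Tgfbr1 with Bmpr2, and Bmpr2 with Acvr1b. Some of this order depends on the length used. With the longest protein-coding transcript Tgfbr1 stood below Bmpr2, at 7.06 and 10.9 CPM per kb in SLMAP3-/- and 6.49 and 11.5 in WT lines. Tgfbr3 then stood below Tgfbr2 in SLMAP3-/- lines too, at 20.5 and 22.6 CPM per kb. With the longest protein-coding transcript as the gene length Eng had rank 6 in WT lines and rank 9 in SLMAP3-/- lines.

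**Figure D2:**
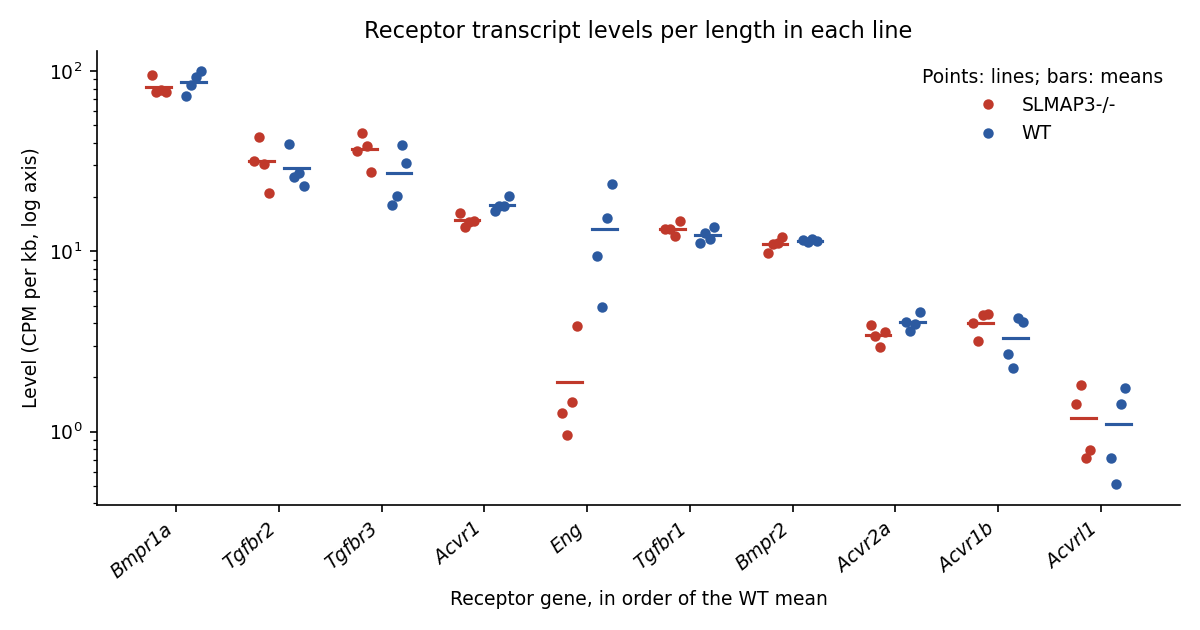
Level of each receptor gene in CPM per kb (vertical log axis), with 1 point for each of the 4 SLMAP3-/- lines in red and the 4 WT lines in blue and a bar at each mean, ordered by the WT mean. The points of Eng form separate clouds with means of 1.89 and 13.3, and those of most other receptors lie side by side.

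Within each line the balance of Eng against its relatives was also read. Eng made up 0.595%, 0.451%, 0.748% and 2.16% of the summed CPM per kb of the 10 genes in SLMAP3-/- replicates 1 to 4. Its share was 5.02%, 2.69%, 6.76% and 10.1% in WT replicates 1 to 4. The shares did not overlap, as the levels of Eng did not, and the summed level of the other 9 receptors was 198 ± 17.3 CPM per kb (SD, n = 4) in SLMAP3-/- lines and 194 ± 18.5 in WT lines. Among the 10 genes Eng had ranks 10, 10, 9 and 8 in SLMAP3-/- replicates 1 to 4, and ranks 7, 7, 5 and 3 in WT replicates 1 to 4. These ranks hold for the mean length of protein-coding transcripts, and some depend on the length used.

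**Figure D3:**
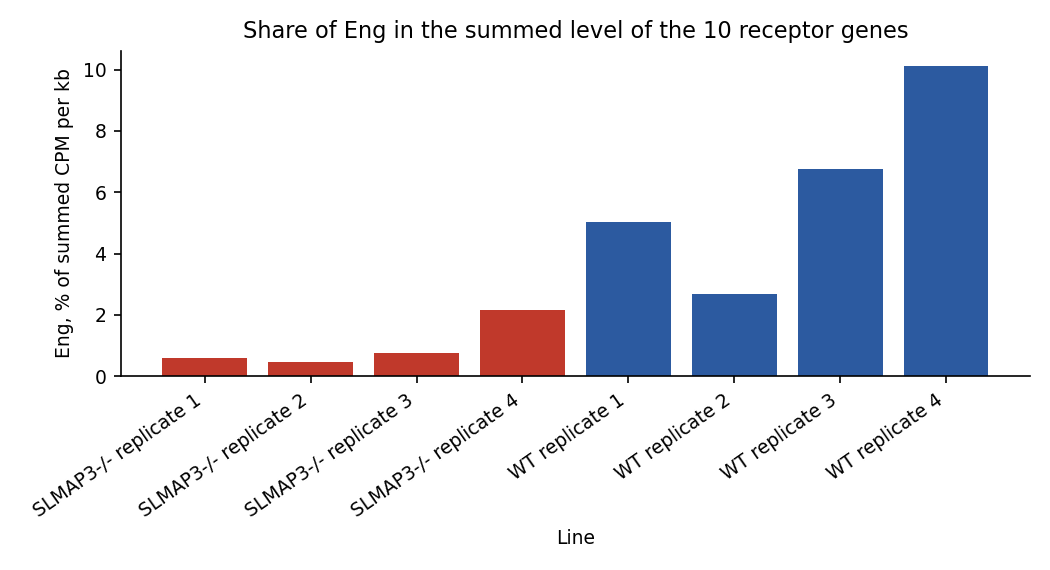
Share of Eng in the summed CPM per kb of the 10 receptor genes (vertical axis, percent), 1 bar for each line, with SLMAP3-/- in red and WT in blue. The 4 SLMAP3-/- lines are between 0.451% and 2.16%, and the 4 WT lines between 2.69% and 10.1%.

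Tgfbr3 encodes betaglycan, the other co-receptor, which presents TGF-beta2 and inhibin. Per length, Tgfbr3 was 28.3, 47.3, 26.3 and 7.13 times as abundant as Eng in SLMAP3-/- replicates 1 to 4. In WT replicates 1 to 4 it was 1.93, 4.11, 2.56 and 1.32 times as abundant. With the mean length of protein-coding transcripts the ratio was thus above 1 in all 8 lines. It was lower in each WT line than in any SLMAP3-/- line, although the levels of Tgfbr3 themselves overlapped. Eng, chosen for its difference, enters this ratio, but both genes differed between the closest lines. In SLMAP3-/- replicate 4 and WT replicate 2 Eng was at 3.87 and 4.91 CPM per kb and Tgfbr3 at 27.6 and 20.2. With the longest protein-coding transcript the WT means of Tgfbr3 and Eng were closer, at 15.1 and 10.5 CPM per kb against 27.1 and 13.3. Ratios near 1, as in WT replicate 4, thus depend on the length used. Tgfbr3 stood at 121, 153, 130.2 and 93.4 CPM in SLMAP3-/- lines and at 61.5, 68.4, 132 and 105 CPM in WT lines. The difference came to 0.44 ± 0.26 (SE) on the log2 scale, with an adjusted p of 1.00 in edgeR's quasi-likelihood test.

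Acvrl1 was scarce in every line. It had 2.49, 3.14, 1.24 and 1.38 CPM in SLMAP3-/- lines and 1.24, 0.890, 2.48 and 3.04 CPM in WT lines. The ranges of the genotypes lay over each other, and the fewest estimated counts in a line were 46. The difference was 0.11 ± 0.47 (SE) on the log2 scale, and it turned to -0.16 without SLMAP3-/- replicate 2, -0.05 without WT replicate 1 and -0.13 without WT replicate 2, so no direction can be given. Per length, Eng was 0.884, 0.531, 2.06 and 4.88 times as abundant as Acvrl1 in SLMAP3-/- replicates 1 to 4. It was 13.2, 9.60, 10.7 and 13.5 times as abundant in WT replicates 1 to 4. With the mean length of protein-coding transcripts, Eng exceeded Acvrl1 in all WT lines and in SLMAP3-/- replicates 3 and 4. It stood below Acvrl1 in SLMAP3-/- replicates 1 and 2. The order in SLMAP3-/- replicate 1 depends on the length used. Before division by length, Eng was at 3.41 CPM there and Acvrl1 at 2.49 CPM.

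Of the 9 receptors other than Eng, 0 passed the threshold of 0.05 on the adjusted p by edgeR's quasi-likelihood test, DESeq2 or limma-voom, where edgeR called 0.00647% of all tested genes, which is Slmap alone. DESeq2 called 11 of the 33816 genes to which it gave an adjusted p, or 0.0325%. With 1 exception they also had unadjusted p-values of at least 0.05. The exception was Acvr1, and across all tested genes 1.81% were under that limit, 0.847% lower and 0.964% higher in SLMAP3-/-. The log2 fold change of 4 of the 9 was below 0 and that of 5 above, between -0.29 and 0.44, with a median of 0.11 against -0.0014 for all tested genes, of which 50.5% were below 0.

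**Figure D4:**
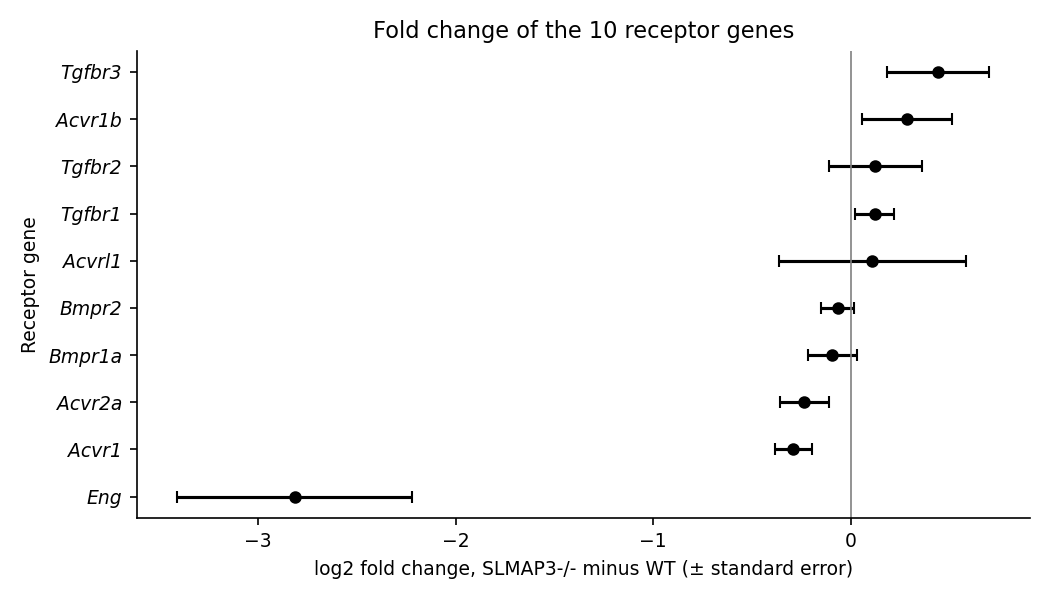
log2 fold change of SLMAP3-/- against WT lines (horizontal axis) for the 10 receptor genes, with bars of 1 standard error either way. Eng lies at -2.81, and the other 9 lie between -0.29 and 0.44.

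Acvr1 encodes ALK-2, a type I receptor for BMPs and activins. It stood at 39.8, 33.3, 35.8 and 36.3 CPM in SLMAP3-/- replicates 1 to 4. In WT replicates 1 to 4 it stood at 41.0, 43.7, 43.7 and 49.5 CPM. Every SLMAP3-/- line was below every WT line, which held for 0.53% of all tested genes in this direction and 1.25% in either, and the closest lines, SLMAP3-/- replicate 1 and WT replicate 1, were near each other. The SLMAP3-/- mean was 36.3 ± 2.69 CPM (SD, n = 4) against a WT mean of 44.5 ± 3.60. On the log2 scale the difference was -0.29 ± 0.09 (SE), with an unadjusted p of 0.0131 and an adjusted p of 1.00 in edgeR's quasi-likelihood test, so the difference did not pass the threshold over all genes.

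The other type I receptors overlapped between the genotypes. Bmpr1a, for the BMP receptor ALK-3, had 222, 178, 183 and 177 CPM in SLMAP3-/- lines and 169.8, 194, 216 and 231 CPM in WT lines (log2 fold change -0.09 ± 0.12, SE). Tgfbr1, for the TGF-beta receptor ALK-5, had 40.3, 40.4, 37.1 and 44.8 CPM in SLMAP3-/- lines and 33.8, 38.2, 35.7 and 41.7 CPM in WT lines (log2 fold change 0.12 ± 0.10, SE). The genotypes overlapped in both genes, and the difference in Tgfbr1 was about as large as the SD between lines of a genotype, 0.12 on the log2 scale. Acvr1b, for the activin receptor ALK-4, had 17.6, 14.1, 19.6 and 19.8 CPM in SLMAP3-/- lines and 11.9, 9.91, 18.8 and 17.8 CPM in WT lines (log2 fold change 0.28 ± 0.23, SE). WT replicates 1 and 2 were the low lines of Acvr1b and WT replicates 3 and 4 lay among the SLMAP3-/- lines.

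The type II receptors overlapped as well. Tgfbr2, which binds TGF-beta itself, had 183, 249, 176 and 122 CPM in SLMAP3-/- lines and 229, 150.2, 158 and 133 CPM in WT lines (log2 fold change 0.12 ± 0.24, SE), which turned to -0.059 without SLMAP3-/- replicate 2. Bmpr2, for BMPs, had 126, 142, 143 and 155 CPM in SLMAP3-/- lines and 149, 145, 151 and 147 CPM in WT lines. Its difference was -0.07 ± 0.08 (SE) on the log2 scale, and the 4 WT values sat inside the range of the SLMAP3-/- values. Acvr2a, for activins, had 22.2, 19.2, 16.8 and 20.3 CPM in SLMAP3-/- lines and 23.1, 20.6, 22.6 and 26.1 CPM in WT lines (log2 fold change -0.24 ± 0.12, SE). SLMAP3-/- replicate 1 alone reached into the WT range of Acvr2a.

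The members rose and fell together only in part from line to line. WT replicate 4 was the highest WT line for Eng, Acvrl1, Tgfbr1, Bmpr1a, Acvr1 and Acvr2a, and the lowest for Tgfbr2. WT replicate 2 was the lowest WT line for Eng, Acvrl1, Bmpr2, Acvr1b and Acvr2a. Among SLMAP3-/- lines replicate 4 was highest for Eng, Tgfbr1, Bmpr2 and Acvr1b and lowest for Tgfbr2, Tgfbr3 and Bmpr1a. As a measure of likeness, the deviations of log2 CPM from the genotype means were correlated with those of Eng over the 8 lines. Acvr1b was most like Eng among the receptors, with Pearson's r = 0.83 and rank 311 of 15460 genes, and Tgfbr2 least, with r = -0.65. Between them were Bmpr2 and Tgfbr1 at 0.52, Acvr2a at 0.50 and Acvr1 at 0.43. Acvrl1 was at 0.29, Bmpr1a at 0.26 and Tgfbr3 at 0.15. These are descriptions over 8 lines, with all genes measured in the same libraries, and no test was made.

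The 5 genes whose deviations were most like those of Eng were Nr1d2 with r = 0.98, H2-T10 with 0.98, and Mir181a-1hg, Rsbn1l and Camkk1 with 0.97 each. By Spearman's correlation Nr1d2, Mir181a-1hg and Rsbn1l were tied at 0.976 and rank 2, while H2-T10 had rank 81 and Camkk1 rank 48. With Pearson's correlation 93 genes had an r above 0.9. Nr1d2 encodes a nuclear receptor of the circadian clock and Camkk1 a calcium-dependent kinase. The genotypes overlapped for all 5, as they did for all but 1.25% of tested genes. Nr1d2 ranged from 56.0 to 89.3 CPM in SLMAP3-/- and from 57.9 to 86.5 CPM in WT cells. Counts were few for Mir181a-1hg, with 7 to 23 estimated counts per line, and for H2-T10, with 8 to 150. The 5 were picked as the highest of 15460 genes over 8 lines, and no test was made.

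Neighbours of Eng on chromosome 2 were listed within 100 kb. Of 20 annotated genes there 11 passed the filter, 0 were called by edgeR's quasi-likelihood test and 0 were under 0.05 before adjustment, with a smallest unadjusted p of 0.0937. Among them were Dpm2, Pip5kl1, St6galnac4, St6galnac6, Ak1, Fpgs, Cdk9, Sh2d3c, Ttc16 and Tor2a. Over the 11 genes the log2 fold change was below 0 for 5 and above 0 for 6, from -0.42 for Ak1 to 0.44 for Ttc16, and their median was 0.01. Fpgs, on the opposite strand, shares 61 exonic bases with Eng, and 0.751% of the 31-base words of Eng transcripts occur in reverse in other transcripts and 0% on the same strand. Whether the counting used strand is not given in the sources used here. Elsewhere in the family, Acvrl1 and Acvr1b lie 28.7 kb apart on chromosome 15, on the same strand, and 7.32% of the words of Acvr2a, which overlaps Orc4 on the opposite strand, occur in reverse in other transcripts.

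The rest of the pathway was read from lists of its parts. Of 10 further receptors and co-receptors of the family, led per length by Neo1, Nrp1 and Rgmb, 8 passed the filter and 0 had an adjusted or unadjusted p under 0.05 in edgeR's test, with 6 below 0 and 2 above and a median log2 fold change of -0.04. Of 18 ligands 12 passed, led in WT lines by Tgfb3, Tgfb1 and Bmp4, with 0 called, 8 below 0 and 4 above and a median of -0.07. In SLMAP3-/- lines Inhba stood above Bmp4 per length, at 29.2 and 27.4 CPM per kb. Gdf2 and Bmp10, which encode the ligands that endoglin binds with ALK-1, did not pass the filter, with means of at most 0.00433 and 0.0172 CPM in either genotype. Inha, for the inhibin alpha subunit, was at 2.93, 1.62, 2.23 and 2.01 CPM in SLMAP3-/- lines and at 1.39, 1.49, 1.38 and 1.48 CPM in WT lines. These values of Inha did not overlap, as was so for 0.724% of all tested genes in this direction and 1.25% in either, and the difference was 0.62 ± 0.24 (SE) on the log2 scale (unadjusted p = 0.0338, adjusted p = 1.00 in edgeR's test).

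All 15 ligand binders and latency proteins passed the filter, with 0 called, 7 below 0 and 8 above and a median log2 fold change of 0.02. Per length they were led by Bgn, Ltbp2 and Ltbp1 in WT lines and by Bgn, Ltbp1 and Ltbp3 in SLMAP3-/- lines. Lrrc32 encodes GARP, which anchors latent TGF-beta to the cell surface. It stood at 135, 337, 142 and 174 CPM in SLMAP3-/- lines and at 87.9, 132, 43.9 and 86.3 CPM in WT lines. The lowest SLMAP3-/- line of Lrrc32 lay just above the highest WT line, so these values did not overlap either (0.724% of all tested genes in this direction). The difference was 1.17 ± 0.39 (SE) on the log2 scale (unadjusted p = 0.0150, adjusted p = 1.00 in edgeR's test).

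Downstream of the receptors, the 8 Smad genes, led by Smad3, Smad2 and Smad4, had 4 below 0 and 4 above and a median log2 fold change of -0.0037, with 0 called and 0 under an unadjusted p of 0.05 in edgeR's test. Smad1, Smad5 and Smad9 encode the Smads of BMP receptors, and their values were 0.07, 0.05 and -0.55 with standard errors of 0.11, 0.13 and 0.59. Of 15 genes known to respond to Smads, Ccn2 and Ltbp2 among them, 0 were called and 0 had an unadjusted p under 0.05, with 9 below 0 and 6 above and a median of -0.02. Id1 and Id3, which respond to BMP, had log2 fold changes of 0.03 and 0.15 with standard errors of 0.35 and 0.31. DESeq2 called 0 genes on each of these lists too. Ltbp2, Smad6 and Smad7 stand on more than 1 of them. The spread between lines was wide for several of these genes. Differences larger than their standard errors could also go uncalled here, as that of Acvr1 did at -0.29 ± 0.09 (SE).

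**Figure D5:**
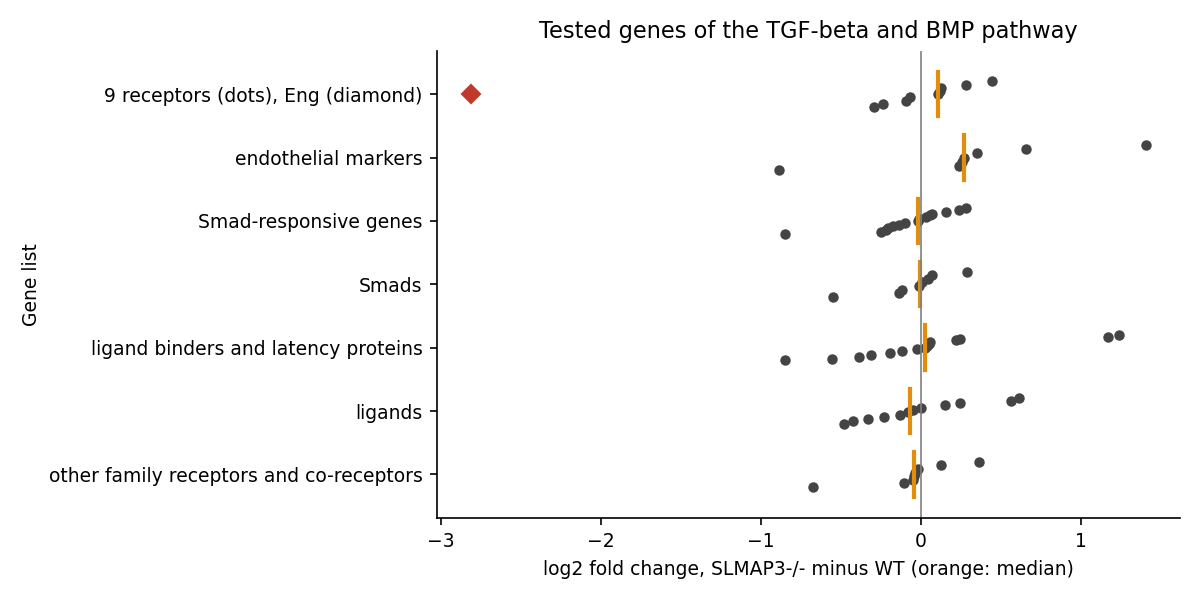
log2 fold change of SLMAP3-/- against WT lines (horizontal axis) for each tested gene of the receptor set and 6 gene lists, 1 dot for each gene and an orange bar at the median of each list, which for the receptors leaves out Eng. Eng, the diamond, lies at -2.81, and the list medians lie between -0.07 and 0.27.

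Since endoglin is a marker of endothelium, 14 endothelial markers were read beside it. Of these, Pecam1, Cdh5, Tie1, Emcn, Cldn5, Esam and Sox17 did not pass the filter, with means of at most 0.142 CPM in both genotypes, and Cldn5 was at 0 counts in all 8 lines. The other 7 were Kdr, Flt1, Tek, Egfl7, Erg, Sox18 and Vwf, of which 1 was below 0 and 6 above, with a median log2 fold change of 0.27 and 0 called. Erg, an ETS transcription factor, had means of 24.3 CPM in SLMAP3-/- and 20.6 CPM in WT cells, Kdr, a VEGF receptor, 17.4 and 13.6 CPM, and the secreted factor Egfl7 11.4 and 9.43 CPM, while Sox18 and Vwf had means under 1 CPM in both. The markers on the list were thus present in part and near 0 in part. The summed CPM of the 14 was between 52.8 and 86.0 in SLMAP3-/- lines and between 31.7 and 89.8 in WT lines. These ranges overlapped.

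Among the endothelial markers, Flt1, a VEGF receptor, had 8.47, 13.1, 10.1 and 7.27 CPM in SLMAP3-/- lines and 8.77, 22.3, 28.8 and 12.1 CPM in WT lines (log2 fold change -0.89, unadjusted p = 0.0439, adjusted p = 1.00 in edgeR's test). Tek, the angiopoietin receptor, had 12.03, 12.2, 7.82 and 2.11 CPM in SLMAP3-/- lines and 1.55, 4.76, 3.88 and 2.70 CPM in WT lines (log2 fold change 1.41, unadjusted p = 0.0320, adjusted p = 1.00 in edgeR's test). The genotypes overlapped in both genes, and the directions were opposite. Of 8 mural cell markers, led by Acta2, Tagln and Cspg4, 6 passed the filter and 0 were called. Their log2 fold change was below 0 for 4 and above 0 for 2, with a median of -0.27. The 2 above 0 were Acta2 at 0.23 and Tagln at 0.22, both with overlapping lines. The summed CPM of the 8 was between 1927 and 4400 in SLMAP3-/- lines and between 2182 and 4715 in WT lines. Cspg4, the proteoglycan NG2 of pericytes, was the 1 of 6 tested mural markers that did not overlap, where 0.53% of all tested genes did so in this direction and 1.25% in either. It had 141, 182, 191 and 179 CPM in SLMAP3-/- lines and 213, 307, 214 and 295 CPM in WT lines (log2 fold change -0.57, standard error 0.16, unadjusted p = 0.00655, adjusted p = 1.00 in edgeR's test). The fibroblast marker Col1a1 had a log2 fold change of -0.30 (unadjusted p = 0.0458, adjusted p = 1.00), with overlapping lines. Most other markers on the mural list were scarce. Kcnj8 and Abcc9 did not pass the filter, with at most 1 and 2 estimated counts in a line. Rgs5, Myh11 and Des had means of at most 1.07 CPM in either genotype. Cspg4 was thus lower in every SLMAP3-/- line, as was Eng, which had been chosen for its difference. The other tested mural markers overlapped. The part of cell composition in the level of Eng was not tested.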

How the data were processed

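The authors assigned reads to the GENCODE M25 transcriptome of GRCm38 with Salmon and deposited an estimated count for each gene and line, corrected for transcript length but without scaling of one line to another. The versions of Salmon and DESeq2 are not given in the sources used here. A second deposited table, with the fold changes and p-values of the authors' own comparison, was not used.

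Estimated counts were rounded. In R 4.3.3, edgeR 4.0.16 kept genes by filterByExpr with a minimum count of 10, normalized by TMM and compared 4 SLMAP3-/- with 4 WT lines by the quasi-likelihood test without covariates, adjusting p by Benjamini-Hochberg over the tested genes with a threshold of 0.05. log2 CPM used a prior count of 2. CPM per kb used the mean length of protein-coding transcripts in GENCODE M21, also of GRCm38. Promoters are RefSeq's. edgeR, DESeq2 1.42.0 and limma-voom (limma 3.58.1) were first tested on simulated data. Depth was between 49878808 and 63322675 estimated counts per line, and for genes with under 100 counts counting error adds to the spread between lines.

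The members and gene lists were chosen with earlier results of these data known. Named are all 10 receptors, Slmap, and of each list the 3 genes highest per length and those with an unadjusted p under 0.05 or without overlap of the genotypes. All endothelial markers, the 5 genes most like Eng and its neighbours within 100 kb are also named. A few genes that this rule names are not reported here. Other genes were named for their known role after their values were seen. Groups are those of the sample labels.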

Additional observations from a re-analysis of the deposited data

Results flagged for a closer look

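In 1 of 20 groups of 4 lines, made of 10 receptors in each genotype, 1 line lay far from the others when its distance to the nearest line was divided by the range of its group, as in Dixon's test. Bmpr1a in SLMAP3-/- replicate 1 was the highest of its genotype at 222 CPM, with a ratio of 0.862, against 177 to 183 CPM in the other SLMAP3-/- lines. Chance gives about 1 such group in 20.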

How the results depend on the processing

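The alternatives were DESeq2, limma-voom, DESeq2's size factors, no filter on low counts, the replicate number as a block, robust empirical Bayes, a threshold of 0.1 on the adjusted p, and the removal of 1 line at a time. Of the 9 receptors other than Eng 0 were called under every one of them, and the smallest adjusted p was 0.786, without the filter. For Eng the log2 fold change was -3.43 to -2.38 when each line was left out, without SLMAP3-/- replicate 4 and without WT replicate 4. The number of genes called was 1 in the edgeR test, 11 in DESeq2 and 0 with the replicate block, and 1 in each fit that left out a line. The replicate numbers were not taken to pair the lines, since the labels state no pairing between the genotypes. The correlations of the deviations of same-numbered lines were -0.16, 0.06, 0.19 and -0.00323, and 1 of 4 lines correlated best with its own number. Under the block the log2 fold change of Eng was -2.81. The direction held in 122 of 126 fold changes of the other receptors under 14 settings and reversed in 4, which were Acvrl1 at -0.16 without SLMAP3-/- replicate 2, -0.05 without WT replicate 1 and -0.13 without WT replicate 2, and Tgfbr2 at -0.059 without SLMAP3-/- replicate 2. With 1 line left out the range was -0.16 to 0.42 for Acvrl1 and -0.059 to 0.31 for Tgfbr2, and the cause was not tested. The unadjusted p of Acvr1 was between 0.00739 in DESeq2 and 0.0441 without SLMAP3-/- replicate 2. Over all fits 1 receptor other than Eng had an unadjusted p under 0.05, except that 2 did without WT replicate 3. Gene lengths from other transcripts moved levels per kb and kept Bmpr1a highest and Acvrl1 lowest by group mean. The order of Eng and Acvrl1 in SLMAP3-/- replicate 1, and of Eng and Tgfbr3 in WT replicate 4, depends on the length used. So does the order by group mean of Tgfbr1 and Bmpr2 in both genotypes and of Tgfbr3 and Tgfbr2 in SLMAP3-/- lines.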
